A study of Homo sapiens with 12 samples.

Results

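Intestinal epithelial genes were described in the cisplatin-sensitive ovarian cancer cell line SKOV3 and its cisplatin-resistant derivative SKOV3/DDP. The 9 genes were CDX2, CDX1, HNF4A, CDH17, GPA33, LGALS4, VIL1, EPS8L3 and ALPI, found by symbol among 46350 named genes. They were chosen from measured values, because CDH17, ALPI and EPS8L3 are found in SKOV3/DDP and not in SKOV3, and 6 further intestinal genes were set beside those 3. The level of the 9 genes in one line against the other is therefore a description here, and no test of it was made. The response to paeonol within a line was not part of the stated choice and was tested, although earlier results of these data were known when the genes were chosen. A fall in SKOV3/DDP is measured from libraries of the line in which the genes were chosen for being present.

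RNA sequencing of 12 libraries covered 4 groups with 3 libraries each. Each line was sequenced untreated and after paeonol, a phenolic compound from the root bark of the tree peony that is abbreviated PAE. Both are human epithelial ovarian cancer lines, and SKOV3/DDP was derived from SKOV3, so each line stands for 1 culture history and any difference between them cannot be told apart from other differences between the 2 stocks. The labels give no dose, duration or batch, and they do not say whether the libraries of a group came from separate cultures, so a p-value measures only the spread between these libraries, which may be technical.

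The epithelium of the intestine is a single sheet of columnar cells whose upper surface carries the brush border, a carpet of microvilli that holds digestive enzymes. CDX1 and CDX2 are homeobox transcription factors that direct intestinal fate, and HNF4A is a nuclear receptor that drives enterocyte genes and is also used in liver and kidney. In ovarian tumors the same genes are best known as markers of mucinous or metastatic intestinal-type tumors. On GRCh38 the files place CDX2 at chr13:27960918-27969337 on the minus strand, CDX1 at chr5:150166778-150184558 on the plus strand, HNF4A at chr20:44355699-44434596 on the plus strand, CDH17 at chr8:94127162-94217278 on the minus strand, GPA33 at chr1:167052836-167090392 on the minus strand. They place LGALS4 at chr19:38801671-38813614 on the minus strand, VIL1 at chr2:218419123-218453295 on the plus strand, EPS8L3 at chr1:109750080-109763976 on the minus strand and ALPI at chr2:232456153-232460753 on the plus strand.

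Total counts ran from 14610008 to 18263479 per library, so 3 counts over a group of 3 libraries correspond to 0.0501 to 0.0862 CPM (a gene's counts in every 1000000 counts of its library), the limit that a group at 0 allows for counting error alone. The 3 untreated SKOV3 libraries stood apart in base composition. The rank correlation of each library's deviation with GC content, over 10809 genes, was 0.762 to 0.785 in them and -0.653 to -0.429 in the other 9 libraries, and they held 17951 to 18240 genes with a count against 21469 to 23194. GC content of the 9 genes ran from 45.5% in CDH17 to 62.7% in ALPI, and 8 of 9 lay above the median of 50.5% for all genes tested. The members and the counts over gene lists are therefore compared between the lines both untreated and with PAE, the latter without the untreated SKOV3 libraries. Markers of the labelled tissue differed between the lines: KRT7, a keratin of Müllerian epithelium, was at 3607 CPM in untreated SKOV3 and 1.22 CPM in SKOV3/DDP, PAX8, a Müllerian transcription factor, at 29.7 and 4.13 CPM, and MSLN, mesothelin, at 149 and 388 CPM, whereas SOX17 had no count in any library. With PAE the order of the lines was the same for these 3 genes, with KRT7 at 1787 CPM in SKOV3 and 0.606 CPM in SKOV3/DDP, PAX8 at 13.2 and 2.45 CPM, and MSLN at 43.6 and 297 CPM.

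The intestinal transcription factors were present in every SKOV3/DDP library and at or near 0 in SKOV3. CDX2 had 3499, 1697 and 2962 counts in the untreated SKOV3/DDP libraries, or 202, 107 and 181 CPM (mean 163 ± 49.8, SD, n = 3), and no count in the untreated SKOV3 libraries. With PAE it had 829, 797 and 708 counts in SKOV3/DDP, or 40.7, 37.5 and 38.9 CPM (39.0 ± 1.61), against 1, 0 and 1 count in SKOV3. The lines did not overlap in either setting, and the untreated SKOV3/DDP libraries spread more widely than the PAE libraries, with replicate 2 well below the other two. CDX2 was at least 1912-fold higher in untreated SKOV3/DDP, measured against 3 counts over the SKOV3 group.

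CDX1, the close relative of CDX2, was lower, at 3.72 against 36.1 CPM per kilobase of exon in untreated SKOV3/DDP. It had 115, 112 and 100 counts in untreated SKOV3/DDP, or 6.63, 7.07 and 6.12 CPM (6.61 ± 0.475), and 34, 23 and 6 counts with PAE, or 1.67, 1.08 and 0.330 CPM (1.03 ± 0.670). None of the 6 SKOV3 libraries had a CDX1 count, which made it at least 76.6-fold higher in SKOV3/DDP untreated and at least 19.6-fold higher with PAE. The third member of the family, CDX4, stayed at or below a mean of 0.0631 CPM in all 4 groups.

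HNF4A held a similar level over the 6 SKOV3/DDP libraries. It had 533, 424 and 438 counts untreated, or 30.7, 26.8 and 26.8 CPM (28.1 ± 2.28), and 468, 362 and 426 counts with PAE, or 23.0, 17.0 and 23.4 CPM (21.1 ± 3.58). SKOV3 was not empty, with 0, 3 and 0 counts untreated and 1, 1 and 2 counts with PAE. The ratio of the lines was 327 (95% exact counting interval 112 to 1587) untreated and 293 (114 to 1078) with PAE, and the lines did not overlap. The antisense gene HNF4A-AS1 had no count, and LOC105372629, which overlaps HNF4A on the other strand, reached 1.05 CPM in SKOV3/DDP. The strand used in counting is not given in the sources used here.

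The promoters of 3 genes are shown to let their letters be compared: CDX2 as the factor, and ALPI and EPS8L3 as 2 of the 3 genes that set the choice. They are RefSeq sequences on GRCh38.p14 that end just before the transcription start or the first base of the gene in the files. CDX2 is read on the minus strand of chr13:27969338-27969565, ALPI on the plus strand of chr2:232455903-232456152 and EPS8L3 on the minus strand of chr1:109763977-109764173, each 5′ to 3′, with letters that match the CDX core TTTATNN on either strand in capitals.
CDX2: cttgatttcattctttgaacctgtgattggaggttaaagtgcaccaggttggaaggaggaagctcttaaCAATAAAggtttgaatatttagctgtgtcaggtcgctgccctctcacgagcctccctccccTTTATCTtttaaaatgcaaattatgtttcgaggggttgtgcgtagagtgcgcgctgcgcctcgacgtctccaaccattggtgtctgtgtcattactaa
ALPI: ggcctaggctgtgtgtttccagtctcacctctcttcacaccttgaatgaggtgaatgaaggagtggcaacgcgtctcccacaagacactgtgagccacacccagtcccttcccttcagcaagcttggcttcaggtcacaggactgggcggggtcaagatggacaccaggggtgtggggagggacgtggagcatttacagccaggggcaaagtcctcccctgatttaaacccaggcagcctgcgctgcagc
EPS8L3: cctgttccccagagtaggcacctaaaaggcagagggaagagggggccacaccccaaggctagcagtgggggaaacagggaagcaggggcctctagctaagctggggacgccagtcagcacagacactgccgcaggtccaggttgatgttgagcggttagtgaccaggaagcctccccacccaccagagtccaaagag
Matches were sought in windows of 250 bases before an annotated transcription start, which can lie inside the gene coordinates given above. The CDX2 window held 2 matches, 181 and 120 bases before its end. Its last 22 bases lay inside the gene and are not printed. The windows of ALPI, EPS8L3, GPA33, HNF4A and LGALS4 held none. The LGALS4 window and a further HNF4A window lay wholly inside their genes. The same core occurred in 32.5% of all 35116 promoter windows of that length, the HNF4 core CAAAGTCCA in 0.325% and in none of the members' windows, and the TATA box TATAAA in 10.7% and in none of them. TATAAA read on the other strand holds the first letters of the CDX core, so matches of the 2 can overlap. No more than the presence of these letters was examined, and CDX1, VIL1 and CDH17 were not among the 6 members with a promoter sequence.

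Among the adhesion and surface proteins, CDH17 was the most abundant member. CDH17, or LI-cadherin, joins intestinal epithelial cells along their sides. It had 5685, 6265 and 4817 counts in untreated SKOV3/DDP, or 328, 396 and 295 CPM (339 ± 51.3), and 2328, 2606 and 3594 counts with PAE, or 114, 122 and 198 CPM (145 ± 46.0). Of the 6 SKOV3 libraries, 1 had a single count, in a PAE library, and the other 5 had none. CDH17 was thus at least 3929-fold higher in SKOV3/DDP untreated, and the ratio with PAE, 7967, had a counting interval of 1430 to 314708. The kidney cadherin CDH16, the nearest relative listed, did not exceed 0.481 CPM in any group.

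LGALS4 was the member most clearly detected in SKOV3. It encodes galectin-4, a lectin that binds sugars at the apical membrane of enterocytes. In SKOV3/DDP it had 511, 767 and 636 counts untreated, or 29.5, 48.4 and 38.9 CPM (38.9 ± 9.48), and 220, 9 and 200 counts with PAE, or 10.8, 0.423 and 11 CPM (7.41 ± 6.05). The second PAE library stood far below the other two. In SKOV3 it had 10, 10 and 3 counts untreated (0.664 ± 0.356 CPM) and 3, 7 and 2 counts with PAE (0.212 ± 0.129 CPM). The ratio of the lines was 58.5 (counting interval 38.9 to 92.5) untreated and 33.4 (18.9 to 65.1) with PAE, and even the lowest SKOV3/DDP library lay above all SKOV3 libraries of the same treatment.

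GPA33 was the least abundant member. It encodes the A33 antigen, a surface protein found on most cells of the intestinal epithelium. It had 8, 27 and 10 counts in untreated SKOV3/DDP, or 0.461, 1.70 and 0.612 CPM (0.926 ± 0.678), and 1, 4 and 1 counts with PAE, or 0.0491, 0.188 and 0.0550 CPM (0.0973 ± 0.0785). SKOV3 had no count untreated and 3, 0 and 0 counts with PAE. It was at least 10.5-fold higher in SKOV3/DDP untreated, but with PAE the lines overlapped and the ratio was 1.87 (counting interval 0.399 to 11.5). A difference between the lines with PAE was not detectable for GPA33 at this depth.

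The 2 brush border cytoskeleton genes differed in abundance, EPS8L3 being at 36.7 and VIL1 at 1.69 CPM per kilobase of exon in untreated SKOV3/DDP. EPS8L3, a relative of the actin regulator EPS8, had 1503, 1508 and 1589 counts in untreated SKOV3/DDP, or 86.7, 95.2 and 97.3 CPM (93.0 ± 5.61), the smallest relative spread of any member there. With PAE it had 687, 733 and 402 counts, or 33.7, 34.4 and 22.1 CPM (30.1 ± 6.91). No SKOV3 library had a count, so it was at least 1078-fold higher in SKOV3/DDP untreated and at least 567-fold higher with PAE. Its relatives were expressed in both lines. EPS8 itself was higher in SKOV3/DDP, at 6.06 CPM in untreated SKOV3 and 60.7 CPM in untreated SKOV3/DDP, and 36.2 and 84.4 CPM with PAE. EPS8L2 was at 305 and 163 CPM untreated and at 56.1 and 81.0 CPM with PAE, and EPS8L1 at 14.1 and 9.10 CPM untreated.

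VIL1 encodes villin, which bundles the actin filaments of microvilli. It had 172, 207 and 162 counts in untreated SKOV3/DDP, or 9.92, 13.1 and 9.92 CPM (10.97 ± 1.82), and 35, 39 and 14 counts with PAE, or 1.72, 1.83 and 0.770 CPM (1.44 ± 0.583). The SKOV3 libraries had 1 count in all, in a PAE library. VIL1 was at least 127-fold higher in SKOV3/DDP untreated, and the ratio with PAE was 82.2 (counting interval 14.4 to 3284). USP37 overlaps VIL1 on the opposite strand and had another pattern, with 5.09 CPM in untreated SKOV3/DDP, 9.26 CPM in SKOV3/DDP with PAE and 11.4 CPM in SKOV3 with PAE.

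ALPI encodes intestinal alkaline phosphatase, an enzyme anchored on the brush border that removes phosphate from bacterial products. It had 224, 266 and 168 counts in untreated SKOV3/DDP, or 12.9, 16.8 and 10.3 CPM (13.3 ± 3.27), and 147, 142 and 99 counts with PAE, or 7.21, 6.67 and 5.45 CPM (6.44 ± 0.904). None of the 6 SKOV3 libraries had a count, which gave at least 154-fold untreated and at least 121-fold with PAE. The near-identical placental enzyme ALPP had another pattern, with 15.0 CPM in SKOV3, 23.7 CPM in SKOV3 with PAE, 8.81 CPM in SKOV3/DDP and 4.99 CPM in SKOV3/DDP with PAE. ALPP and ALPG share much of their sequence with ALPI, so reads could have been split among the 3 in counting.

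**Figure D1:**
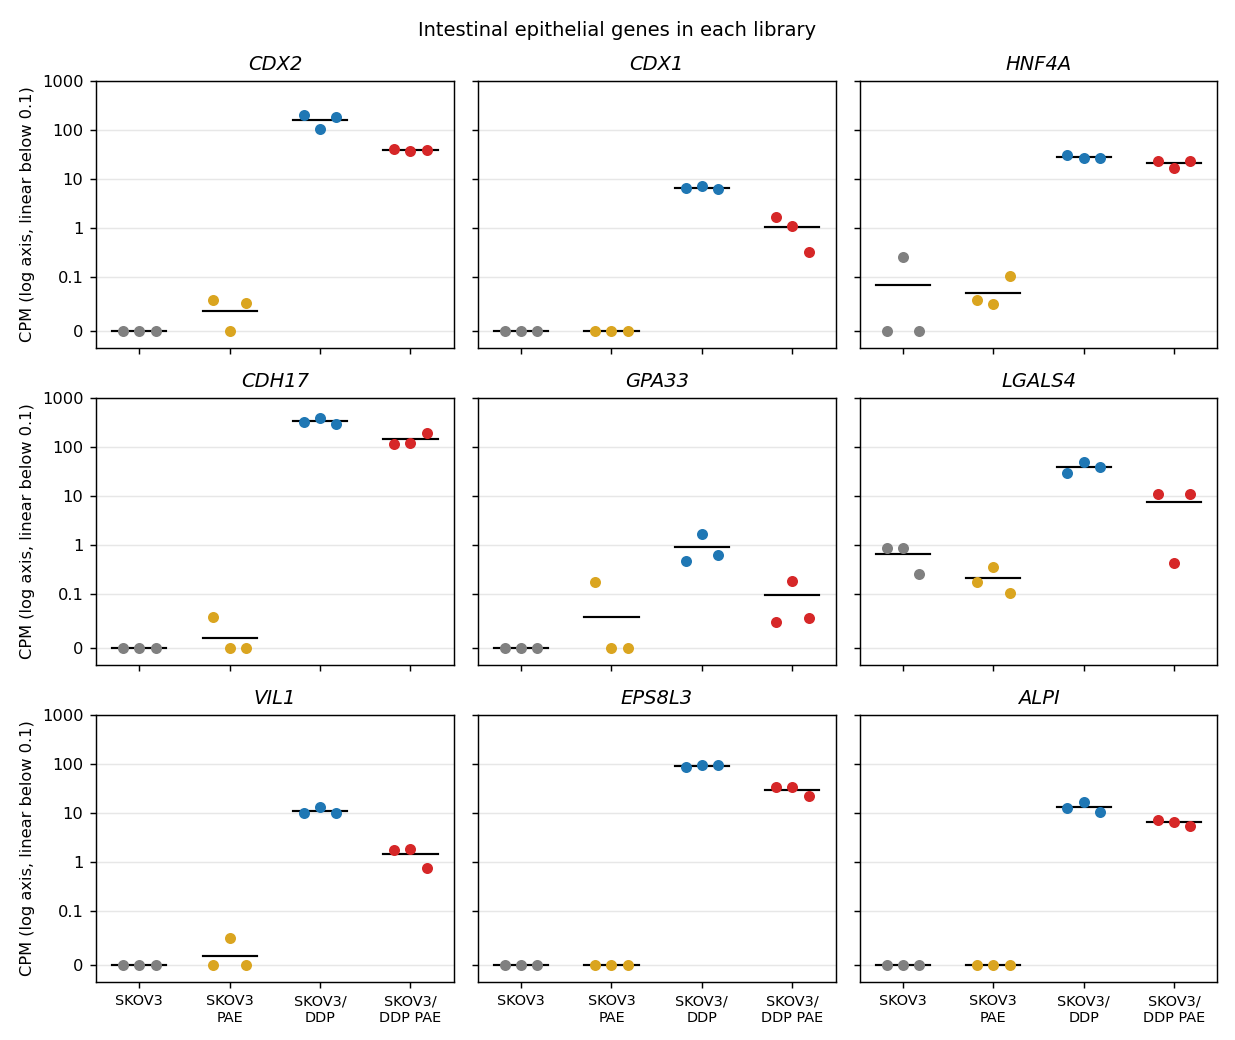
CPM of each of the 9 genes in every library, 1 panel per gene, with the 4 groups along the horizontal axis, 1 point per library, and a line at the group mean; the vertical axis is logarithmic above 0.1 CPM and linear below. SKOV3/DDP points lie above SKOV3 points of the same treatment in every panel except GPA33 with PAE, and PAE points lie below untreated points in SKOV3/DDP in all 9 panels.

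In untreated libraries the lines did not overlap for 9 of 9 members, and with PAE for 8 of 9. Of all genes tested, 47.9% were without overlap and higher in SKOV3/DDP untreated and 31.4% with PAE, and because the members were chosen on this contrast nothing is read from their count. Set against gene length, the order of levels in untreated SKOV3/DDP was CDH17 at 89.7 CPM per kilobase of exon, EPS8L3 at 36.7, CDX2 at 36.1, LGALS4 at 13.4, ALPI at 4.11, HNF4A at 3.81, CDX1 at 3.72, VIL1 at 1.69 and GPA33 at 0.352. EPS8L3 overlapped with CDX2, and ALPI with HNF4A and HNF4A with CDX1, so these neighbors were not separated beyond the spread of their libraries. With PAE CDH17 remained highest at 38.3 CPM per kilobase, EPS8L3 at 11.9 and CDX2 at 8.62 followed, and HNF4A at 2.87 moved ahead of LGALS4 at 2.54 and ALPI at 1.99, with overlap among the latter 3. CDX1 at 0.578, VIL1 at 0.222 and GPA33 at 0.0370 CPM per kilobase came last.

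The members did not rise and fall together from library to library. In untreated SKOV3/DDP, replicate 2 held the highest level of 6 members, CDH17, ALPI, CDX1, VIL1, LGALS4 and GPA33, and the lowest of CDX2 and HNF4A. With PAE, replicate 3 held the highest level of CDH17, LGALS4 and HNF4A and the lowest of ALPI, EPS8L3, CDX1 and VIL1. The libraries are bulk samples, in which fewer cells with these genes and less RNA per cell cannot be told apart.

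PAE lowered most of the members in SKOV3/DDP. Of the 8 members with enough counts to be tested, 7 fell and HNF4A did not pass the test, while none rose. Over all 17133 genes tested in the same fit, 14.7% fell and 26.4% changed in either direction; the share that fell was 23.2% with the GC and length trend removed and 11.2% with scaling by total count alone. Unless another tool is named, an adjusted p is from the quasi-likelihood test of edgeR, adjusted over all genes by Benjamini and Hochberg's method. The minimum of the filter was 0.617 CPM, taken on total counts without TMM scaling. CDX1 and LGALS4 passed it in all 3 untreated libraries but in only 2 of 3 PAE libraries, and GPA33 was not tested.

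VIL1 and CDX1 fell furthest. VIL1 fell to 13.1% of its untreated level, a log2 fold change of -2.92 ± 0.45 (SE, adjusted p = 0.000694). CDX1 fell to 15.5%, with a log2 fold change of -2.67 ± 0.54 (adjusted p = 0.00524). For both genes all PAE libraries lay below all untreated ones.

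LGALS4 fell to 19.0% of its untreated level, at -2.40 ± 0.69 (adjusted p = 0.0192), and 1 library with 9 counts had much weight in this. Without that library the log2 fold change was -1.80 (adjusted p = 0.00731), and over all alternatives the adjusted p ran from 8.32e-10 to 0.0438. CDX2 fell to 23.9%, at -2.07 ± 0.27 (adjusted p = 0.000256), the smallest adjusted p among the members. EPS8L3 fell to 32.3%, at -1.63 ± 0.24 (adjusted p = 0.000934).

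CDH17 and ALPI fell less. CDH17 fell to 42.7% of its untreated level, at -1.23 ± 0.27 (adjusted p = 0.00574). ALPI fell to 48.3%, at -1.05 ± 0.33 (adjusted p = 0.0395), and this call was lost whenever any 1 of the 6 SKOV3/DDP libraries was left out (adjusted p 0.0620 to 0.125). ALPI also missed the threshold when libraries were scaled by total count alone (adjusted p = 0.0734), without the filter on low counts (0.0670) and with the replicate number as a block (0.0643), within a range of 0.0104 to 0.125 over all alternatives.

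HNF4A kept 75.2% of its untreated level, with a log2 fold change of -0.41 ± 0.32 (adjusted p = 0.369), although its 3 PAE libraries lay below its 3 untreated ones. GPA33 had a PAE mean at 10.5% of the untreated mean from 6 against 45 counts. Counting all members, the PAE libraries lay below the untreated ones without overlap for 9 of 9, where 23.7% of all genes tested did so. The median log2 fold change of the 8 tested members was -1.85 against 0 for all genes tested.

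Falls with PAE were also counted among genes that, like the members, were nearly absent from SKOV3. Of 474 tested genes outside the members with at most 3 counts in the 6 SKOV3 libraries together, 29.5% fell and 8.02% rose, with a median log2 fold change of -0.73. The difference between the members and these genes was not tested. Removing the GC and length trend left the same number of members called, 7 of 8, and DESeq2 also called 7 of 8.

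**Figure D2:**
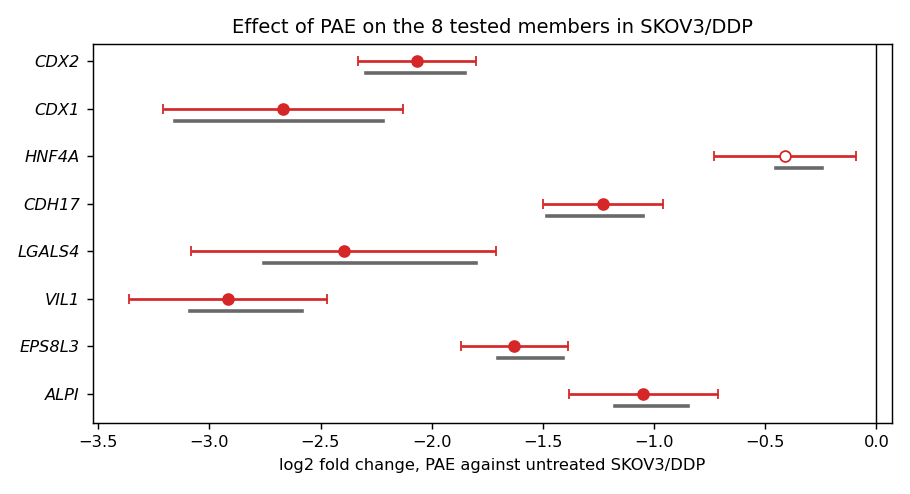
Log2 fold change with PAE in SKOV3/DDP for the 8 members tested; points with bars are the estimate ± SE from 3 against 3 libraries, filled where the adjusted p is under 0.05, and the gray bar under each point is the range when 1 of the libraries is left out. All 8 estimates lie below 0, from -2.92 for VIL1 to -0.41 for HNF4A, whose point is open.

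In SKOV3 the members gave too few counts for any response to PAE to be read. On total counts, the scale of the filter, no member had a SKOV3 library above the minimum of 0.617 CPM, treated or not. On the TMM scale LGALS4 was at 0.887 and 0.852 CPM in untreated SKOV3 replicates 1 and 2. Of the 9 members, 7 had no count in untreated SKOV3. Of the 8 members that entered the test through SKOV3/DDP none was called with PAE in SKOV3 by edgeR's quasi-likelihood test, 0 had an unadjusted p under 0.05, and DESeq2 called 0. LGALS4, the member with the most SKOV3 counts, was at 0.664 CPM untreated and 0.212 CPM with PAE, a log2 fold change of -1.60 ± 1.09 (adjusted p = 0.195), and its libraries overlapped. It passed only without the filter on low counts (adjusted p = 0.0130, within a range of 0.0130 to 0.547 over all alternatives). For the same reason no difference in response between the lines can be read for any of the 9 genes.

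A wider list of 114 intestinal genes, none of them a member, was examined by role. Untreated, 52 of them had enough counts to be tested, and 36 were higher and 9 lower in SKOV3/DDP, or 69.2% and 17.3%. Over all genes tested 84.7% differed, 46.1% higher and 38.5% lower. The split over all genes turned with the handling of base composition, to 20.4% higher and 50.1% lower of 13982 genes with the GC and length trend removed, and was 53.9% and 30.6% with scaling by total count alone, while the list had 35 higher and 6 lower and 39 higher and 5 lower. With PAE the list had 37 higher and 8 lower of 56 tested, while among all genes 54.5% differed, 27.5% higher and 27.1% lower, and the list's split was 37 and 8 with the trend removed and 36 and 8 with total count alone. The 2 comparisons set different libraries against each other.

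Detection gave a narrower picture than the counts of calls. Of the 114 genes, 31 had a mean of at least 1 CPM in untreated SKOV3 and 47 in untreated SKOV3/DDP, and 33 and 46 with PAE. Untreated, at most 3 counts in SKOV3 together with at least 1 CPM in SKOV3/DDP were found for 11 list genes, and the opposite for 2, GATA5 and APOA1. Among all 46350 named genes these patterns were held by 847 and 610. With PAE they were held by 9 and 2 list genes, and by 306 and 637 of all named genes, so the balance over all genes turned.

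Of 13 transcription factors of the wider list tested, 12 were higher and 1 lower in SKOV3/DDP untreated, and 9 and 1 with PAE. The shares higher over all genes tested were 46.1% untreated and 27.5% with PAE. Among the most abundant of these factors were KLF5, a factor of dividing crypt cells, and GATA6, a factor of gut endoderm. KLF5 was at 33.2 ± 12.3 CPM in untreated SKOV3 and 310 ± 64.3 CPM in untreated SKOV3/DDP, but at 263 ± 42.7 and 328 ± 31.6 CPM with PAE, where the lines did not differ by the test (log2 fold change 0.32, adjusted p = 0.329). GATA6 was at 115 ± 23.0 against 24.9 ± 6.66 CPM untreated and at 76.0 ± 8.67 against 37.0 ± 3.01 CPM with PAE. With PAE in SKOV3/DDP 1 transcription factor rose and 1 fell of 13, where 11.8% of all genes tested rose and 14.7% fell. Neither KLF5 nor GATA6 was called. GATA5, among the 13, had no count in SKOV3/DDP and could not be called.

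Adhesion and surface genes of the wider list were higher in 8 of 11 tested and lower in 1 untreated, and 9 and 1 with PAE. The shares higher over all genes tested were 46.1% and 27.5%. E-cadherin, CDH1, had 442 ± 130 CPM in untreated SKOV3/DDP against 7.63 ± 5.01 CPM in SKOV3, and with PAE 149 ± 43.6 against 53.8 ± 29.3 CPM. EPCAM, an epithelial adhesion protein, had 289 ± 21.6 against 1.26 ± 0.773 CPM untreated and 183 ± 11.1 against 6.33 ± 1.81 CPM with PAE. The tetraspanin TSPAN8 had 221 ± 34.2 against 0.712 ± 0.386 CPM untreated and 58.9 ± 4.75 against 2.48 ± 0.640 CPM with PAE. These are general epithelial genes as well as intestinal ones. PAE in SKOV3/DDP lowered 6 of 11 and raised 1, where 14.7% of all genes tested fell and 11.8% rose. Among the 6 were CDH1 (log2 fold change -1.57, adjusted p = 0.0229) and TSPAN8 (-1.90, adjusted p = 0.000234), while EPCAM did not pass the test (-0.65, adjusted p = 0.106).

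Brush border cytoskeleton genes were higher in 9 of 15 tested and lower in 3, untreated and with PAE alike in number. Again 46.1% of all genes tested were higher untreated and 27.5% with PAE. USH1C, the scaffold harmonin that links microvilli, had no count in any SKOV3 library, 177 ± 22.3 CPM in untreated SKOV3/DDP and 66.0 ± 6.58 CPM with PAE. That was at least 2054-fold higher untreated and at least 1228-fold higher with PAE, and the fall with PAE was -1.42 on the log2 scale (adjusted p = 0.000957). The broadly used membrane linker EZR was abundant in both lines, at 307 ± 15.7 CPM in SKOV3 and 271 ± 48.5 CPM in SKOV3/DDP untreated (adjusted p = 0.213), but with PAE it was lower in SKOV3/DDP, at 183 ± 16.8 against 419 ± 125 CPM (log2 fold change -1.20, adjusted p = 0.000537). PAE in SKOV3/DDP lowered 5 of 15 and raised 1, where 14.7% of all genes tested fell and 11.8% rose.

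Of 12 brush border enzymes only 3 could be tested untreated, and 2 were higher in SKOV3/DDP. DPP4, a peptidase of the brush border, had no SKOV3 count and was at 10.9 ± 3.03 CPM in untreated SKOV3/DDP and 5.44 ± 0.883 CPM with PAE, at least 126-fold and at least 101-fold above SKOV3. ENPEP, an aminopeptidase, was at 2.27 ± 0.436 and 3.65 ± 0.700 CPM in SKOV3/DDP against 0 and 0.0871 ± 0.110 CPM in SKOV3. ACE, a peptidase also of blood vessels, was at 7.05 ± 1.15 CPM in SKOV3 and 5.47 ± 1.3 CPM in SKOV3/DDP (adjusted p = 0.197), and with PAE at 3.39 ± 1.23 and 2.23 ± 1.09 CPM (adjusted p = 0.241). With PAE in SKOV3/DDP 1 of 4 tested enzymes fell, ACE, and none rose.

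Of 21 transporters and lipid absorption genes, 3 could be tested untreated, with 2 lower and none higher in SKOV3/DDP, and 5 with PAE, with 2 lower and 1 higher. SLC9A3, a sodium exchanger of the brush border, was at 71.6 ± 7.90 CPM in SKOV3 and 8.30 ± 1.41 CPM in SKOV3/DDP untreated, and at 15.1 ± 5.47 and 7.15 ± 0.382 CPM with PAE (log2 fold change -1.08, adjusted p = 0.00249). DGAT1, an enzyme of triglyceride synthesis, was at 94.4 ± 33.7 and 20.9 ± 18.9 CPM untreated (adjusted p = 0.0561) and at 17.0 and 19.6 CPM with PAE (adjusted p = 0.832). APOA1, an apolipoprotein, was at 1.98 ± 1.02 CPM in SKOV3 and had no count in SKOV3/DDP untreated, while with PAE it was at 0.125 and 0.130 CPM (adjusted p = 0.942). In this group PAE raised 2 of 5 in SKOV3/DDP and lowered none.

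Goblet, Paneth and endocrine genes were mostly out of reach, with 20 of 23 untested untreated. Of the 3 tested, 2 were higher and 1 lower in untreated SKOV3/DDP. Of 4 tested with PAE, 3 were higher and none lower. Among all genes tested, 46.1% were higher untreated and 27.5% with PAE. The cell surface mucin MUC13 was the most abundant of this role, at 333 ± 113 CPM in untreated SKOV3/DDP against 0.439 ± 0.556 CPM in SKOV3. With PAE it was at 130 ± 15.9 against 1.42 ± 1.08 CPM, and its fall in SKOV3/DDP passed the test (log2 fold change -1.36, adjusted p = 0.0418). FCGBP, a mucus protein, was lower in untreated SKOV3/DDP, at 0.485 ± 0.163 against 3.71 ± 0.869 CPM, and higher with PAE, at 1.46 ± 0.299 against 0.444 ± 0.0895 CPM (log2 fold change 1.70, adjusted p = 0.00410), so its direction turned. AGR2, a goblet cell chaperone, was at 1.74 ± 2.05 CPM in SKOV3/DDP with no SKOV3 count and was not tested.

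Crypt stem cell genes were higher in 3 of 4 tested in untreated SKOV3/DDP and in 4 of 4 with PAE, and PAE lowered 3 of 4 in SKOV3/DDP. Over all genes tested 46.1% and 27.5% were higher, and 14.7% fell. The exception was ASCL2, at 0.728 CPM in untreated SKOV3/DDP against 2.02 CPM in SKOV3, and not called with PAE in SKOV3/DDP (log2 fold change 0.50, adjusted p = 0.502). OLFM4 and SMOC2, with 1 and 7 counts in untreated SKOV3/DDP, were not tested. SOX9, a progenitor factor, fell from 604 ± 254 to 118 ± 38.1 CPM (log2 fold change -2.36, adjusted p = 0.00818). AXIN2, a target and brake of Wnt signaling, fell from 261 ± 131 to 55.4 ± 8.10 CPM (-2.23, adjusted p = 0.00428). The stem cell receptor LGR5 fell from 5.27 ± 2.0 to 0.813 ± 0.485 CPM (-2.68, adjusted p = 0.00392).

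**Figure D3:**
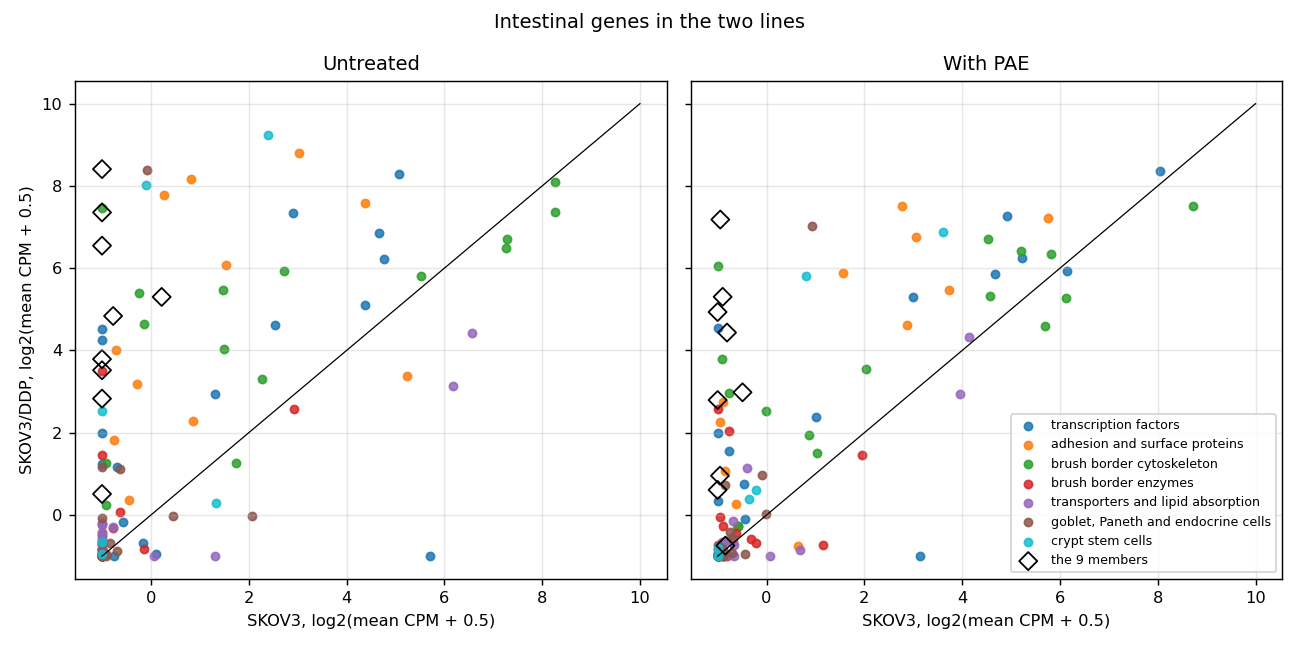
Mean CPM of the 114 intestinal genes (colored by role) and the 9 members (open diamonds) in SKOV3 (horizontal) and SKOV3/DDP (vertical), as log2(mean CPM + 0.5), untreated on the left and with PAE on the right; the line marks equal levels. The members sit at or near the left edge in both panels, and most colored points with a level above 1 CPM in SKOV3/DDP lie above the line.

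Over the whole wider list, PAE in SKOV3/DDP lowered 17 of 56 tested genes, or 30.4%, and raised 6, where 14.7% of all genes fell and 11.8% rose. The median log2 fold change was -0.57 for the list. Some tested genes had no count in a line and could not be called there: GATA5 in SKOV3/DDP, and ISX, PDX1, FOXA2, USH1C and DPP4 in SKOV3. With the GC and length trend removed 21 list genes fell and 6 rose, against 23.2% and 9.95% of all genes, and with scaling by total count alone 15 fell and 7 rose, against 11.2% and 16.9%. In SKOV3 PAE raised 15 and lowered 17 of the 56, where 75.3% of all genes changed, 42.6% up and 32.7% down, and this split moved with the handling of base composition, to 6 and 13 with the GC and length trend removed, where 8.56% of all genes rose and 49.7% fell, and to 27 and 11 with scaling by total count alone, where 52.9% rose and 22.4% fell.

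**Figure D4:**
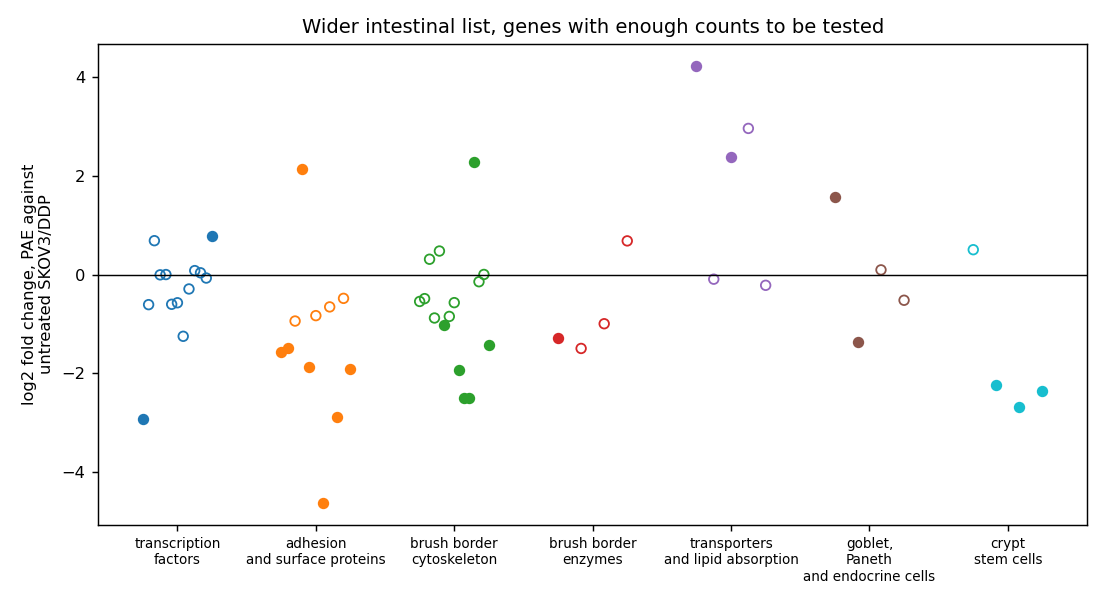
Log2 fold change with PAE in SKOV3/DDP for the 56 tested genes of the wider list by role, 1 point per gene, filled where the adjusted p is under 0.05. Filled points lie below 0 for 17 genes and above for 6, and adhesion, brush border cytoskeleton and crypt stem cell genes hold most of those below.

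Markers of other cell types that express some of these genes were summed for each library. Stomach markers came to 0.568 to 1.16 CPM in the untreated SKOV3/DDP libraries and 0.170 to 0.682 CPM in SKOV3, with none of 9 at 1 CPM. Liver markers came to 23.5 to 31.8 CPM in SKOV3/DDP against 1.51 to 2.64 CPM, and 6 of 10 had no count in SKOV3/DDP. Most of that was SERPINA1, a protease inhibitor that gut cells also make, which was low in SKOV3 and higher in SKOV3/DDP, at 0.774 and 26.3 CPM untreated and 1.64 and 16.3 CPM with PAE. Kidney tubule markers came to 0.947 to 1.5 CPM in SKOV3/DDP against 14.8 to 22.9 CPM in SKOV3, where PAX2 was at 18.4 CPM. Blood cell markers came to 100.1 to 127 CPM in SKOV3/DDP and 121 to 137 CPM in SKOV3, and fibroblast and endothelial markers to 6.34 to 7.10 and 19.4 to 21.8 CPM. The blood cell sums held opposite differences. CD14 was at 67.8 CPM in untreated SKOV3 and 2.70 CPM in untreated SKOV3/DDP, and CD68 at 52.4 and 97.1 CPM. Of 12 Müllerian and ovarian markers, 7 were tested untreated, 2 being higher and 5 lower in SKOV3/DDP. With PAE 8 were tested, 2 being higher and 6 lower. Among all genes tested, 46.1% were higher and 38.5% lower untreated, and 27.5% and 27.1% with PAE. FOLR1, a folate receptor and 1 of the 2 that were higher, was nearly absent from SKOV3, at 0.118 CPM untreated and 0.108 CPM with PAE, against 36.0 and 20.8 CPM in SKOV3/DDP.

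With PAE in SKOV3/DDP, fibroblast and endothelial markers fell in 3 of 6 tested, where 14.7% of all genes tested fell. The 3 were COL1A1 from 3.98 to 0.441 CPM (log2 fold change -3.14, adjusted p = 0.000205), PDGFRB (-1.93) and VWF (-2.68). The median of -1.56 for the 6 takes DCN and PDGFRA, which had no count in SKOV3/DDP, as 0. The summed level of the markers listed went to 0.880 to 1.60 CPM. Of 3 blood cell markers tested 1 fell, CD68 from 97.1 to 51.8 CPM (-0.91, adjusted p = 0.0108), and of 3 liver markers 1 rose, TF from 0.287 to 3.18 CPM (3.45, adjusted p = 0.000707). Neither of 2 kidney tubule markers nor the 1 stomach marker tested passed. None of 8 Müllerian and ovarian markers was called by edgeR's quasi-likelihood test, with 1 at an unadjusted p under 0.05, FOLR1, which DESeq2 called. Of the 8, MEIS1 and FOXL2 had no count in SKOV3/DDP and could not be called. The same held for DCN and PDGFRA of the fibroblast and endothelial markers tested, and for FGB of the liver markers tested. FOLR1, PDGFRB and VWF were picked after their values were seen. The part of these cell types in the members' fall was not tested.

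The genes most like CDH17, ALPI and EPS8L3 over the 12 libraries were outside the intestinal lists, apart from DPP4. Likeness was the root mean square difference of log2(CPM + 0.5) among 19720 protein-coding genes, so level and pattern both entered. For CDH17 the nearest were MAGED1 (0.216), GSTM4 (0.465) and MT1E (0.475), a signaling adaptor, a glutathione transferase and a metallothionein. GSTM4 and MT1E belong to families of near-identical genes, so their counts are uncertain. For ALPI they were HEYL (0.228), DPP4 (0.246) and MCOLN2 (0.258), and for EPS8L3 ALDH7A1 (0.334), PRR9 (0.352) and CLIC5 (0.360). MAGED1 had no SKOV3 count and was at 289 ± 4.84 CPM in untreated SKOV3/DDP and 143 ± 5.73 CPM with PAE. Of 19305 genes with no count in the 6 SKOV3 libraries, 410 had a count in all 6 SKOV3/DDP libraries, and 85 of these had a mean of at least 5 CPM untreated.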

How the data were processed

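Poly-A RNA of 12 libraries was sequenced with the NEBNext Ultra kit. The deposited files hold whole-number counts per gene of 1 library each, with no normalization, for 47219 loci; 869 without a gene name, holding 0.126% to 0.678% of the counts, were left out. The submitters' processing notes name HISAT2 2.0.5, StringTie 1.3.3b, DESeq2 and edgeR; the counter, annotation release and strand setting are not given in the sources used here. Gene coordinates are those of the files, which use RefSeq accessions of GRCh38.

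Groups were taken from the sample titles. Counts were filtered (filterByExpr), scaled (TMM) and tested with edgeR 4.0.16 (R 4.3.3), quasi-likelihood, two-sided, Benjamini-Hochberg over all genes at 0.05. All 12 libraries shared 1 fit, except the untreated comparison between the lines, which used its 6 libraries. CPM are TMM-scaled over the 12 libraries. A fold against a group at 0 is a lower bound against 3 counts over the group; other ratios carry a 95% exact binomial interval for counting error only, and PCR reads are not independent molecules. GC and length trends were removed in an alternative with a spline offset; DESeq2 1.42.0 was another. On simulated counts for PAE in SKOV3/DDP, with 16454 genes, changes of 1, 2 and 3 on the log2 scale were recovered for 9.52%, 86.4% and 98.6% of changed genes, and 0.0492% of unchanged genes were called.

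Members and lists were chosen with earlier results of these data known. Named were all 9 members, up to 3 genes of each role with the highest mean CPM in any group, up to 2 of each other marker list, the genes related to a member by sequence, and the 3 protein-coding genes most like each of CDH17, ALPI and EPS8L3; 1 gene named by this rule is not reported here. Replicate numbers did not pair the samples: the correlations of same-numbered libraries ran from -0.309 to 0.200.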

Additional observations from a re-analysis of the deposited data

Results flagged for a closer look

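By the test of the difference itself, the PAE effect on CDX2 differed between the lines by -4.60 on the log2 scale (edgeR's quasi-likelihood test, adjusted p = 0.0404, range 0.0218 to 0.119 over the alternatives; DESeq2 adjusted p = 0.0939). In SKOV3 the value comes from 0 counts untreated and 2 with PAE, and no SKOV3 library reached the minimum for a tested gene, so it cannot be read as a difference in response between the lines. In SKOV3/DDP every PAE library lay below every untreated library.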

How the results depend on the processing

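Of 1261 values of single genes under an alternative, 1148 kept their direction and side of the threshold, 72 lost the call, 37 gained one and 4 reversed. Of 179 counts and levels under an alternative, 27 were marked as moved, and the counts among these moved by more than 1.5 times. Members called with PAE in SKOV3/DDP were 7, 0 where at least 10 counts in every library were required, since no member could then be tested, and 4 at an unadjusted p under 0.05 with an absolute log2 fold change over 2. Members called with PAE in SKOV3 were 1 without the filter on low counts. The difference of the PAE effect called 0 members under the stricter filter and 0 with DESeq2. The wider list had 19 calls untreated, 16 with PAE, 9 for PAE in SKOV3/DDP and 18 for PAE in SKOV3 under the stricter filter, which tested fewer genes. It had 29 with PAE and 12 for PAE in SKOV3/DDP under the fold limit, and 19 for PAE in SKOV3 with the GC and length trend removed. Over all genes the lines with PAE gave 5486 calls under the stricter filter and 4220 under the fold limit, PAE in SKOV3/DDP 1218 under the fold limit, and the difference of the PAE effect 6902 with the GC and length trend removed. The level among the 27 was the mean over the SKOV3/DDP libraries of the members' median CPM. It was 27.7 with TMM and 29.3 with library totals in its place.

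With 1 library left out, the member calls ran from 6 to 7 for PAE in SKOV3/DDP, 0 to 0 for PAE in SKOV3 and 0 to 2 for the difference. All genes called with PAE in SKOV3/DDP ran from 2815, without SKOV3/DDP replicate 1, to 4349, and were 2837 without SKOV3/DDP replicate 3. Reversed were TSPAN8 at -0.93 and EZR at -0.66 (PAE in SKOV3, GC and length trend removed), EPS8L2 at 0.48 (untreated, the same trend removed) and EZR at 0.50 (untreated, total count alone); the cause was not tested. With the replicate number as a block, which does not pair these samples, 6 members were called with PAE in SKOV3/DDP, ALPI being lost, and 19 genes of the wider list. Low counts limit GPA33, and CDX1 and VIL1 with PAE.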
